A study of Mus musculus with 14 samples.

Results

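DP cells at the coverage level of host white blood cells made up 177 of the 450 DP cells in a set of 648 single-cell DNA profiles. They were chosen by the deposited label DP, a tissue of blood or lung, and a median below 2.7 over all bins of chromosomes 1 to 19 in the deposited coverage values. The labels do not spell out DP, and the series asks what genome candidate hybrids of tumor cells and leukocytes carry. The cells came from 9 samples, each of female C57BL/6J mice of 6 to 8 weeks injected with fluorescently labelled B16F10 cells, a melanoma line of the same strain. They numbered 10 in sample C1L, 24 in C1N, 35 in C1R, 15 in C2N, 19 in C2R, 8 in C3R, 48 in P1, 3 in P2 and 15 in P4. Of all 177, 74 were from blood and 103 from lung. They were set against 46 white blood cells (WBC) from 6 of these samples, 21 WBC of naive female mice of the same strain and age (1 sample), and 22 cells of the B16F10 culture. The labels do not say whether a sample is 1 mouse, so the p-values measure the spread between samples only, which may be technical.

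In a hybrid formed by fusion, both parental genomes would share a nucleus, and coverage would then carry the gains and losses of the tumor beside host DNA. A leukocyte that only took up tumor label would carry a host genome. Lymphocytes are the exception to an intact host genome, because they cut DNA out of their antigen receptor genes when they rearrange them. T cells delete segments at Tcra, Tcrb and Tcrg, and B cells delete segments at Igh and at the light chain loci.

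The autosomal median is the value that chose the cells, and it gathered narrowly. It ran from 1.71 to 1.93 in 176 cells, and the remaining cell lay at 2.44. The lowest DP cells left out by the limit stood at 3.52, 3.53 and 3.53. WBC of the injected mice ran from 1.70 to 1.94. Bins were about 538 kb wide (median), and read counts per cell were not used here, so the depth is unknown. How far adjacent bins of a cell lie apart, taken as a median of absolute log2 differences and called bin noise, is given in its place. Bin noise lay between 0.136 and 0.242 on the log2 scale in these DP cells and between 0.140 and 0.230 in WBC. Where a sample held 3 or more DP cells and 3 or more WBC (C1L, C1N, C1R, C2R and C3R), mean bin noise was 0.173 ± 0.0154 in DP cells and 0.168 ± 0.0141 in WBC (SD, n = 5 samples). The difference of 0.00468 did not exceed its spread (two-sided exact sign-flip test over samples, p = 0.375). With 5 pairs this test cannot give a p below 0.0625, so it cannot reach 0.05, and it was used for all class comparisons of single values. P1, P2 and P4 held no WBC and C2N only 2, so these samples enter no class test. The pairs are not matched by tissue. In C1R 33 of 35 DP cells but 3 of 12 WBC were from lung, and in C2R 19 of 19 and 9 of 13. In C1L 6 of 10 DP cells were from lung and all WBC from blood. Class differences can therefore include differences between tissues.

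The profiles of these cells lay near that of naive WBC in nearly every case. The B16F10 culture differs from naive WBC by a higher chromosome 6 (0.54), lower chromosomes 14 (-0.40) and 18 (-0.37), and a lower X (-1.02), all as chromosome medians on the log2 scale. The median DP cell stood at 2.8e-05 for chromosome 6, -0.02 for chromosome 14, 0.02 for chromosome 18 and 0.02 for X. A tumor score was computed as the slope of a cell's autosomal profile on the culture profile, so that naive WBC average 0 and culture cells average 1. The score ran from -0.44 to 0.924 in DP cells, with a median of 0.0267. Only 1 DP cell scored above 0.5, and 0 scored from 0.25 to 0.75.

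That 1 cell was the blood cell of C1L with an autosomal median of 2.44, and its profile was close to that of the culture and not to that of WBC. Its tumor score was 0.924, against a range of 0.886 to 1.11 in the culture. Chromosome 6 was higher by 0.53 and X lower at -0.85, with chromosome 14 at -0.38 and chromosome 18 at -0.28. It held 22 altered segments, among them the proximal X at -0.72 and the distal X at -1.60. Chromosome 7 of this cell stood at -0.35, where the culture stood at -0.02. Results that were recomputed without it and moved by over 1.5 times are also given in that form. Differences of single chromosomes, of single genes and of receptor loci other than Tcra are given only with it.

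Sample means of the tumor score overlapped between the classes. In DP cells the mean score was 0.127 in C1L, 0.0170 in C1N, 0.0197 in C1R, 0.0262 in C2R and 0.0612 in C3R. In WBC of the same samples it was -0.0026, 0.0204, 0.0239, 0.00525 and 0.00755. DP cells were higher in 3 of 5 samples. The difference was 0.0393 ± 0.0557 (SD, n = 5, exact sign-flip p = 0.25). Without the cell at 2.44 it was 0.0216 (exact p = 0.25), and without C1L 0.0168. With the bins at the ceiling kept it was 0.0594 (higher in 5 of 5 samples, exact p = 0.0625, the smallest possible). The X level, the median of X bins relative to the autosomes, was -0.0179 ± 0.0667 in DP cells and 0.0300 ± 0.0537 in WBC (SD, n = 5). DP cells were higher in 2 of 5 samples (difference -0.0479 ± 0.0585, exact p = 0.25), and the difference was -0.0279 without the cell at 2.44.

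**Figure D1:**
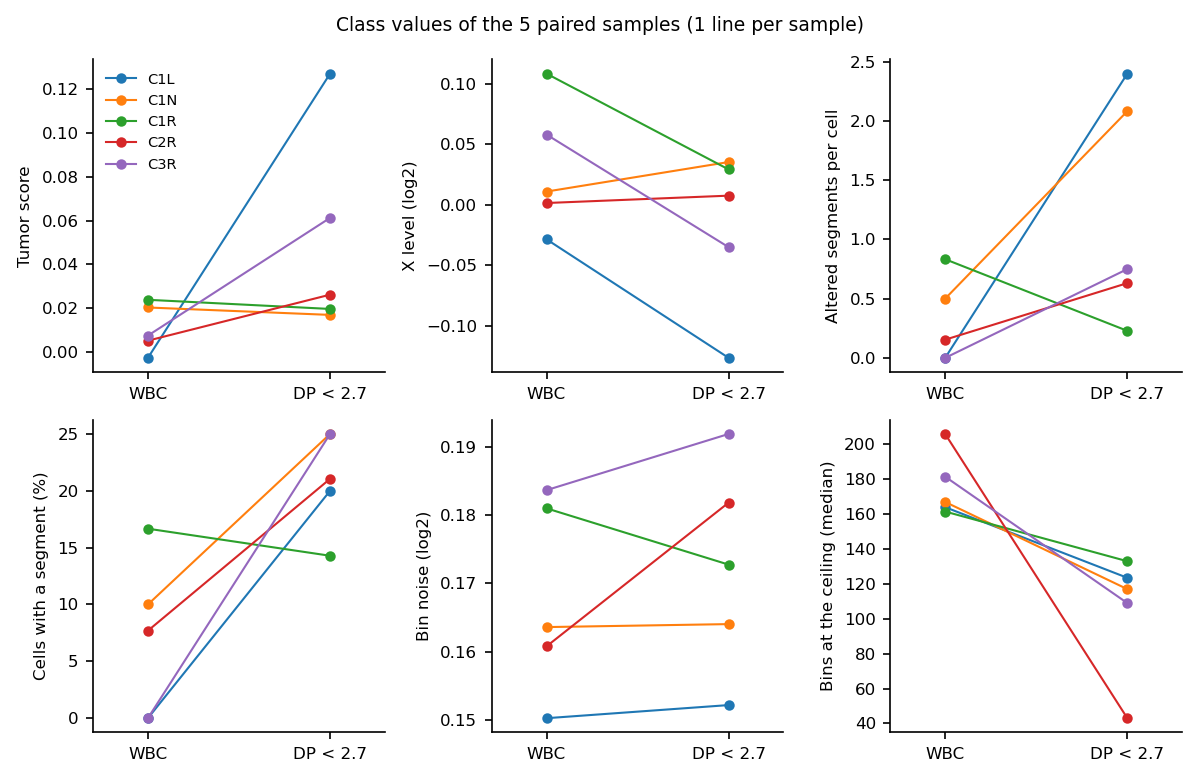
Each panel shows 1 measure, with the mean over cells (the median for bins at the ceiling) of the WBC and of the DP cells below 2.7 in each of the 5 paired samples, joined by a line. The C1L line carries the highest DP tumor score (0.127), and bins at the ceiling are fewer in DP cells in each of the 5 samples.

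Above the highest WBC score of 0.0788 lay 17 DP cells of 8 samples. After the cell at 2.44, the highest score was 0.1997, in a blood cell of C3R. This cell had chromosome 6 at 0.11, chromosome 14 at -0.10, chromosome 18 at -0.06 and X at -0.09, each on the side of the culture. Its Tcra V bin, described below, stood at 22.1% of the culture median, and its Il1rapl1 bin at 0.988. The remaining 15 cells scored from 0.0799 to 0.152. Of these, the highest was a blood cell of P1, with chromosome 14 at -0.13 but chromosome 6 at -0.01 and 3 altered segments. DP cells also lay below the lowest WBC score of -0.0901, and these were not counted. Among them were a blood cell of C1R at -0.143 and blood cells of P1 at -0.141 and -0.134. There were 177 DP cells against 46 and 21 WBC, so more DP cells can lie past either end. The lowest score was that of a lung cell of C1N, at -0.44. Its chromosome 6 stood at -0.59 and the proximal part of chromosome 1 (mm10, 4138504 to 63101931) at -0.79, where the culture stood at 0.54 and 0.52.

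Lung and blood DP cells could be compared within 3 samples. The mean score was 0.0349 in lung and 0.265 in blood in C1L, 0.00490 and 0.0339 in C1N, and 0.0267 and 0.0141 in P1. The mean difference of lung minus blood was -0.0822 ± 0.130 (SD, n = 3, exact sign-flip p = 0.5, with 0.25 the smallest p possible). Without the cell at 2.44 it was -0.0089 (exact p = 0.75).

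Genes that mark the tumor genome were read in the bin over each gene's midpoint and tested across all 4376 bins kept, with limma and the sample as a block. Of these bins 0 passed at a false discovery rate of 5% (0% called, smallest adjusted p 0.528 by limma), and 375 had an unadjusted p under 0.05, which is 8.57% of those tested. Of the 14 tumor genes 0 passed, and 4 had an unadjusted p under 0.05. Their differences between DP cells and WBC ran from -0.09 to 0.10, with a median of -0.0038, against a median of -0.0067 over all bins. The bin of Mitf, the master transcription factor of melanocytes, was 0.10 higher (SE 0.0378, limma adjusted p = 0.559, higher in 4 of 5 samples), where the culture exceeded naive WBC by 0.62. The bin of Dct, an enzyme of melanin synthesis, differed by -0.09 (SE 0.0349, limma adjusted p = 0.560, higher in 0 of 5 samples). Met, the receptor of hepatocyte growth factor, differed by 0.07 and the kinase gene Braf by 0.08. The pigment transporter gene Slc45a2 differed by -0.08, and the cell cycle kinase gene Cdk4 by -0.06. Akt1, Pmel, Mc1r, Mdm2, Apc and Arid1a stayed between -0.03 and 0.02, as did Cdkn2a and Cdkn2b, which share 1 bin at -0.0038. The sign was that of the culture in 12 of the 14 genes, and in 10 without the cell at 2.44. Mitf, Met and Braf all lie on chromosome 6, and Pmel, Cdk4 and Mdm2 on chromosome 10, so the genes are not separate readings. The same count was not made over all bins, so this count carries no test.

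Leukocyte genes, whose DNA should not differ between host cells, served as a comparison. Of 10 such genes 0 passed, and their differences ran from -0.08 at Ptprc, the CD45 gene, to 0.08 at Cd3e, a subunit of the T cell receptor complex. Gene clusters that do not rearrange gave the same count. Of 140 bins over olfactory receptor, vomeronasal receptor, Klra, Hist1, Hox and keratin clusters 0 passed, with differences from -0.23 to 0.16. The lowest of these was in a vomeronasal receptor cluster (46 bins, median -0.05) and the highest in an olfactory receptor cluster (85 bins, median -0.02).

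Whole chromosomes were summarised by their median difference from the mean naive WBC profile. Tested over class means with limma, 1 of 20 chromosomes passed at 5% (5.00% called). This was chromosome 19, which was higher in DP cells by 0.04 (SE 0.00840, limma adjusted p = 0.0350, higher in 5 of 5 samples). The call did not survive leaving out any 1 of the samples C1N, C1R, C2R and C3R, with limma adjusted p from 0.0545 to 0.147. With no replicate block 0 passed (smallest limma adjusted p 0.554), and without C1L 2 passed, 1 higher and 1 lower. After chromosome 19 the most positive differences were chromosomes 17 (0.02) and 6 (0.01), and the most negative were X (-0.05), 7 (-0.02) and 14 (-0.02), none of which passed. These values include the cell at 2.44, with chromosome 6 at 0.53, chromosome 14 at -0.38 and X at -0.85. Its part in them is not given. Across DP samples the mean of chromosome 19 ran from 0.01 to 0.08.

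Single cells departed much further than the class means. A chromosome was called deviating where its median differed by at least 0.4 on the log2 scale. Gain of 1 copy on 2 would give 0.56 on this scale and loss of 1 copy -0.93, pseudocount included. By this limit 9 of 177 DP cells carried a deviating chromosome (5.08%, exact 95% interval 2.35 to 9.43). Among WBC of injected mice it was 0 of 46 (exact interval 0 to 7.71%), and among naive WBC 0 of 21 (0 to 16.1%). These intervals cover counting error only. The most extreme WBC chromosome was at -0.32, so the range of WBC did not reach the limit. The 9 cells came from C1L, C1N, C1R, P1 and P4, and 5 of them from P1 and P4, where no WBC were measured. In the paired samples, DP cells held 0.0681 deviating chromosomes per cell and WBC 0 (exact sign-flip p = 0.25, higher in 3 of 5 samples). Without the cell at 2.44 the difference was 0.0281 (exact p = 0.5), and without C1L 0.0351. The count of 0 in WBC depends on the limit. At a limit of 0.3, which 3 WBC passed, the difference was 0.0214 (higher in 1 of 5 samples, exact p = 1).

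**Figure D2:**
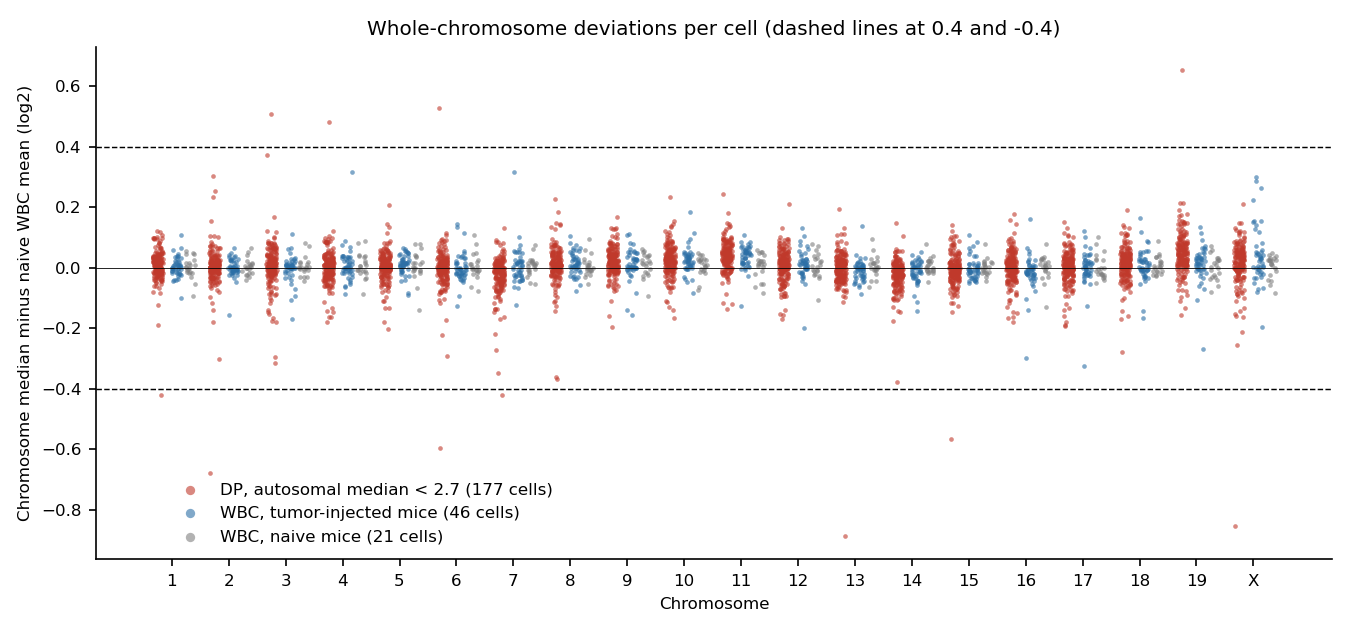
Each point is the median log2 difference of 1 chromosome in 1 cell from the mean naive WBC profile, for the 177 DP cells below 2.7, the 46 WBC of injected mice and the 21 WBC of naive mice. The dashed lines mark 0.4 and -0.4, and the points beyond them belong to 9 DP cells.

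The clearest profile was that of a lung cell of C1R. All of its chromosome 13 was low (-0.89, 0.541-fold, with 100% of the 201 bins kept past the limit in the running median). The distal part of its chromosome 2 (mm10, 99665762 to 182113224, 82.4 Mb) was higher by 0.89, nearer to the 0.96 of a doubling than to the 0.56 of 1 added copy. Its tumor score was 0.0359, and the culture stands at 0.02 on chromosome 13 and -0.03 on that part of chromosome 2.

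In P1, chromosome 2 of a blood cell was lower by 0.679 (0.625-fold) along its length, with the proximal part at -0.67 and the distal part at -0.68. Another P1 blood cell was higher on all of chromosome 19 (0.65, 1.57-fold). Chromosome 15 of a further blood cell stood at -0.57 and chromosome 7 of a lung cell at -0.42, and these cells carried 9 and 12 altered segments.

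The P4 blood cell was higher on chromosome 4 (0.48, 1.40-fold, with 78.2% of bins past the limit). In another lung cell of C1R, chromosome 3 was higher from 54517877 to 160039680 (0.58) but at 0.06 in its proximal part, so the change covered 1 segment and not the chromosome. The C1N lung cell with the score of -0.44 was low on chromosomes 1 (-0.42) and 6 (-0.59) and held 24 segments, the most of any cell. Of the deviating chromosomes only those of the cell at 2.44 (chromosome 6 and X) and chromosome 3 in C1R lay on the side of a culture difference of at least 0.2. The same chromosome deviated in 2 cells only for chromosome 6, once on each side.

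**Figure D3:**
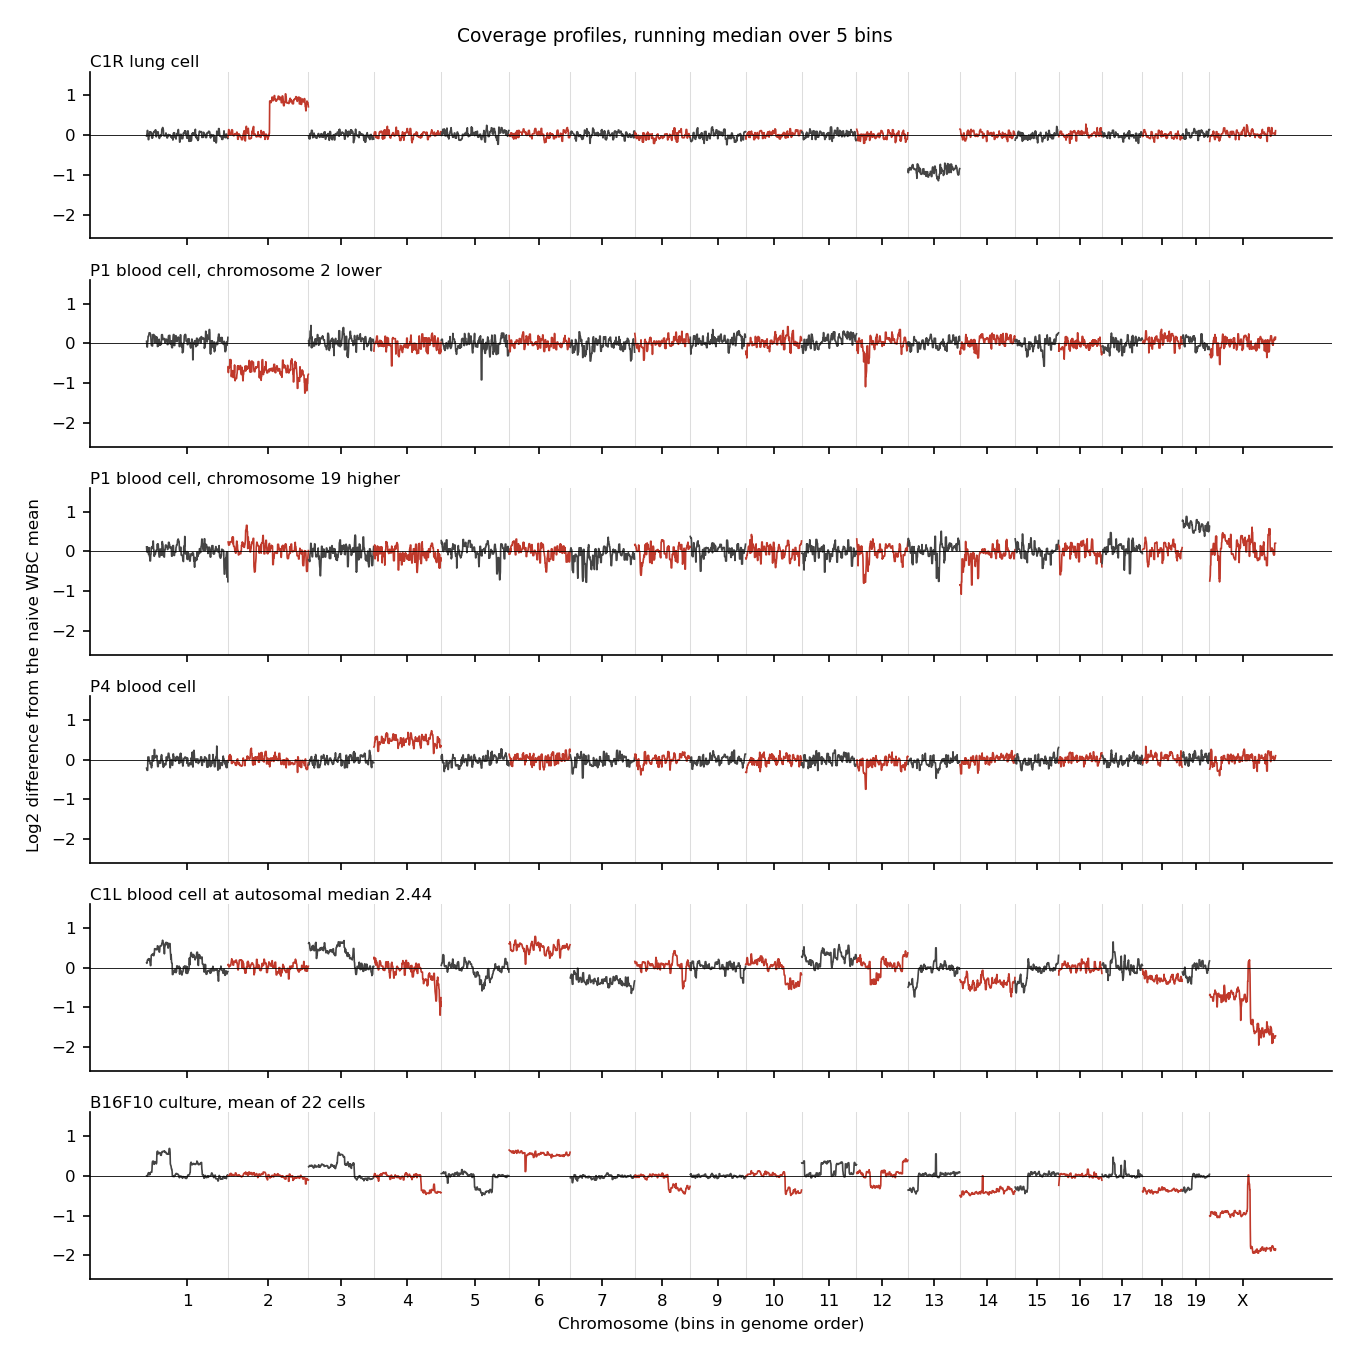
Each panel shows the log2 difference from the mean naive WBC profile along the genome (running median of 5 bins, chromosomes in alternating colours) for 5 DP cells and the mean of the 22 culture cells. The C1R lung cell departs on chromosome 13 and distal chromosome 2 and stays near 0 elsewhere, while the C1L cell at 2.44 follows the culture on chromosomes 1, 6, 14 and X.

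Shorter changes were read as segments, runs of at least 10 bins whose running median over 5 bins differed by at least 0.4. Segments numbered 185 in 42 of 177 DP cells (23.7%, exact interval 17.7 to 30.7), against 17 in 4 of 46 WBC (8.70%, 2.42 to 20.8) and 0 in 21 naive WBC. In the paired samples the share of DP cells with a segment was 20% in C1L, 25% in C1N, 14.3% in C1R, 21.1% in C2R and 25% in C3R. In WBC it was 0%, 10%, 16.7%, 7.69% and 0%. DP cells were higher in 4 of 5 samples, by 14.2 ± 10.3 percentage points (SD, n = 5, exact sign-flip p = 0.125). With segments of at least 20 bins the difference was 3.01 ± 8.22 points (higher in 3 of 5 samples, exact p = 0.375). Segments per cell were 1.22 in DP cells and 0.297 in WBC (exact p = 0.188), a difference of 0.921 that was 0.486 without the cell at 2.44, 0.552 without C1L and 0.282 with segments of at least 20 bins.

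Carriers of segments had noisier profiles. Their median bin noise was 0.201, against 0.170 in DP cells without a segment, and in WBC it was 0.205 against 0.160. Up to the joint median noise of 0.174, 7 of 81 DP cells (8.64%) and 0 of 31 WBC carried a segment, and above it 35 of 96 DP cells (36.5%) and 4 of 15 WBC (26.7%). The part of bin noise in the excess was tested only by this split and by leaving out the noisier cells, where the difference was 13.7 percentage points (higher in 4 of 4 samples, exact p = 0.125, which is the smallest possible).

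Most segments of DP cells were lower. Of the 185, 140 were lower and 45 higher, with a median length of 7.39 Mb, while of the 17 in WBC 6 were lower and 11 higher. One change can be broken into several segments, as on chromosome 4 of the P4 blood cell above, which gave 8. In 4 DP cells there were 10 or more segments each, so segments are not separate changes. Where the culture differs from naive WBC by at least 0.3, 32 segments ran with it and 26 against it, and 127 fell where it does not. The culture is past 0.3 in 33.1% of all bins kept, so with the cell at 2.44 counted the share of segments in such bins was near that of the genome. Without this cell the counts were 14, 26 and 123, a share below that of the genome. Segments of at least 20 Mb numbered 19 in 11 DP cells and 0 in WBC. Without the cell at 2.44, 12 were left in 10 cells, 6 higher and 6 lower, of which 1 ran with the culture and 1 against it.

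Among them, besides those above, were a higher chromosome 2 from 130745171 to 175195853 (0.57) in a P1 lung cell, a higher chromosome 4 from 90147598 to 111257165 (0.55) in a C1N lung cell with a low bin noise of 0.147, and a lower proximal X to 35290564 (-0.78) in a C1R lung cell, where the culture stood at -0.97. This X segment is the 1 that ran with the culture, and the rest of that cell's profile gave a tumor score of 0.0501.

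Short segments recurred at a few places. The most frequent was chromosome 12 from 17742574 to 24383592 (mm10), which was lower in 16 DP cells of 7 samples and in 0 WBC. Named protein-coding genes there include Adam17, which sheds cytokine precursors from the cell surface, Ywhaq, a 14-3-3 protein, and Asap2. The 16 cells stood between -0.87 and -0.47 and had a median bin noise of 0.217. Over all cells of a class the region had medians of -0.21 in DP cells, -0.08 in WBC and 0.03 in naive WBC. Its 12 bins differed between DP cells and WBC by -0.12 to -0.03. A region of chromosome 13 (67506681 to 73439503) was lower in 7 DP cells, 1 of them the C1R cell that was low on all of chromosome 13. It holds a cluster of zinc finger genes, 9 of its 24 named protein-coding genes, and the Iroquois homeobox genes Irx1, Irx2 and Irx4. On chromosome 7 one region was lower in 6 cells (36034575 to 41483685, with the cyclin gene Ccne1). Of these, 3 were P1 cells with other lower segments on chromosome 7, 1 of them the lung cell with this chromosome at -0.42. Another region was lower in 5 cells (133809183 to 137955750, with the repair gene Mgmt and the proliferation marker gene Mki67). These 5 include that lung cell and the cell at 2.44. A further region of chromosome 12 (104095690 to 109788790, with Dicer1, the enzyme that makes mature miRNAs) was lower in 4 cells. Class medians in DP cells, WBC and naive WBC were -0.13, -0.09 and 0.03 for the chromosome 13 region. They were -0.064, -0.060 and 0.002 for the first chromosome 7 region and -0.08, -0.04 and 0.01 for the other. For the further chromosome 12 region they were -0.04, 0.02 and 0.01. None of the regions named here was altered in a WBC by this rule, and their carriers' median bin noise was between 0.211 and 0.229. Only 15 WBC had a bin noise above the joint median of 0.174. The regions were found in these cells, so the counts carry no test.

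Antigen receptor loci were examined because a deletion there would mark a lymphocyte. Each locus was given as the mean of its bins over the median of the 10 bins on either side. Sample means for Tcra with Tcrd (chromosome 14, 52427967 to 54224198) were 0.614 ± 0.0244 in DP cells and 0.605 ± 0.0172 in WBC (SD, n = 5, exact sign-flip p = 0.5). The difference was 0.00979, and 0.00531 without the cell at 2.44. The culture median was 0.894 and that of naive WBC 0.582, so a ratio below that of the culture was common to the host classes. Tcrb (chromosome 6, 40891296 to 41558371) differed by 0.00106 and Tcrg (chromosome 13, 19178042 to 19356476) by 0.0209, with sample spreads of 0.0602 and 0.0559. Igl (chromosome 16, 19026858 to 19260844) differed by -0.0707 ± 0.103 and Igh (chromosome 12, 113258768 to 116009954) by -0.109 ± 0.327. Igk (chromosome 6, 67555636 to 70726754) was the locus where all pairs had 1 sign. It was lower in DP cells in 5 of 5 samples (1.36 against 1.55, difference -0.188 ± 0.160, exact p = 0.0625, 0.375 after adjustment over the 6 loci). Many bins over Igh and Igk sit at a ceiling of 10 in the deposited values, 4 of 6 and 2 of 6 being affected in at least 1% of all cells. DP cells also held fewer bins at the ceiling genome-wide, with sample medians averaging 105.1 against 176 in WBC and lower in 5 of 5 samples (exact p = 0.0625). The part of the ceiling in the Igk difference was not tested.

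Of the 4 Tcra bins the lowest holds 54 V segments (chromosome 14, 52958219 to 53528636). In DP cells the others had medians of 0.718, 0.710 and 0.95. Relative to the autosomal median the lowest bin was near 0 in every host class and near 0.43 in the culture. No WBC of injected mice exceeded 0.0238 and no naive WBC 0.0105, so a low value in this bin does not mark lymphocytes among WBC. The median was 0.00986 in DP cells, 0.00740 in WBC and 0.00215 in naive WBC, and the culture ran from 0.355 to 0.509. Sample medians of DP cells were 0.00943 in C1L, 0.00968 in C1N, 0.00608 in C1R, 0.0107 in C2N, 0.00201 in C2R and 0.00941 in C3R. They were 0.0183 in P1, 0.0153 in P2 and 0.0173 in P4, so the 3 P samples were above all 6 C samples. Mean bin noise was 0.194, 0.222 and 0.182 in these P samples and from 0.152 (C1L) to 0.192 (C3R) in the C samples. Over the 177 DP cells this bin and bin noise had a Spearman correlation of 0.293, and the part of noise was not tested. WBC medians were 0.00928, 0.00808, 0.00917, 0.0118, 0.00340 and 0.00945 in C1L, C1N, C1R, C2N, C2R and C3R. C2R was thus lowest in both classes, and the classes differed by -0.00055 (SD 0.00177, n = 5, exact p = 0.688). As a share of the culture median, DP samples ran from 0.470% in C2R to 4.27% in P1.

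The Il1rapl1 bin, on X (87239364 to 87785367) in a gene for a synaptic adhesion protein, is low in the culture (median 0.0983) and gave the opposite mark. It averaged 1.03 in DP cells and 1.02 in WBC over sample medians (exact p = 0.688). A cell was counted as carrying both marks where the Tcra V bin exceeded all naive WBC and the Il1rapl1 bin exceeded all culture cells. By this count 77 of 177 DP cells (43.5%, exact interval 36.1 to 51.1) and 13 of 46 WBC (28.3%, 15.99 to 43.5) carried both. So did 23 of 43 cells labelled CTC from the injected mice (53.5%), whose tumor scores were all 0.829 or more. Cells with a tumor profile can thus pass both limits. The share of DP cells was 85.4% in P1 (41 cells), 66.7% in P4 (10 cells) and 0% in C2R. P1 and P4 held no WBC, so the pooled shares are not matched by sample. In paired samples it was 22.5% in DP cells against 30.9% in WBC (higher in 1 of 5 samples, exact p = 0.188). The difference of -8.40 percentage points was -3.59 without C1R. In all 77 cells the count rested on the Tcra V bin, because the Il1rapl1 bin was above its limit in each of the 177.

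**Figure D4:**
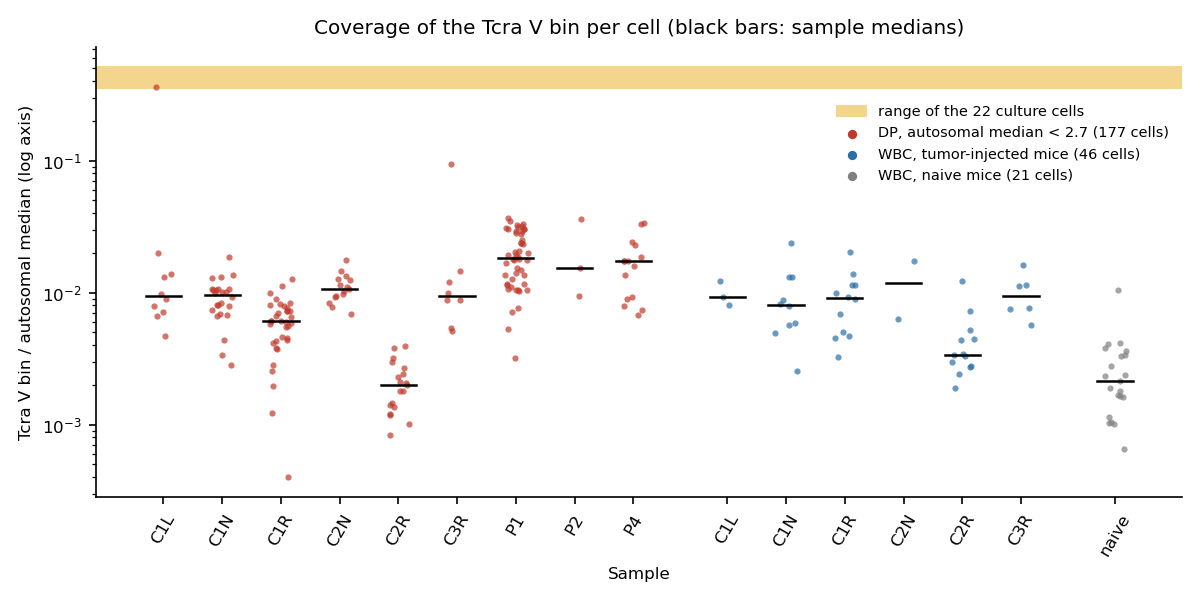
Each point is the Tcra V bin of 1 cell divided by its autosomal median, on a log axis, by class and sample, with black bars at the sample medians and a band for the range of the 22 culture cells. The DP cell of C1L at 0.361 lies in the band, that of C3R at 0.0947 lies between, and the sample medians of DP cells run from 0.00201 to 0.0183.

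The bin over the D and J segments of Igh (chromosome 12, 113419638 to 113977619, with 24 V, 10 D and 4 J segments) had a low tail in each host class. B cells delete DNA here when they join V, D and J segments. It reached the ceiling in 5.25% of all cells and is outside the bins tested with limma. The median was 1.43 in DP cells, 1.42 in WBC and 1.53 in naive WBC. Cells under 1.0, a limit set after the values were seen, numbered 12 of 177 DP cells (6.78%, exact interval 3.55 to 11.5), 9 of 46 WBC (19.6%, 9.36 to 33.9) and 6 of 21 naive WBC (28.6%, 11.3 to 52.2). None of 22 culture cells was under it. The lowest DP cell stood at 0.155 (P4 blood), the lowest WBC at 0.221 and the lowest naive WBC at 0.0191. In blood the DP share was 11 of 74 (14.9%) and in lung 1 of 103 (0.971%), against 7 of 28 (25%) and 2 of 18 (11.1%) in WBC.

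By sample the share under 1.0 went both ways. DP cells held 10% in C1L, 0% in C1N, 2.86% in C1R, 0% in C2R and 37.5% in C3R. WBC held 66.7%, 0%, 25%, 23.1% and 0%, and the C1L value rests on 3 cells. The difference was -12.9 ± 34.7 percentage points (SD, n = 5, exact sign-flip p = 0.5). It was -1.93 without C1L and -25.5 without C3R. In lung cells only it was -6.40 and in blood cells only -1.39 (n = 3 samples each). A V region of Igk (chromosome 6, 68648345 to 69234146) was lower in the same cells, with a median of 0.699 in the 12 DP cells against 0.820 in the other 165. In naive WBC the medians were 0.494 and 0.838. The P1 blood cell with the higher chromosome 19 was among the 12, with Igh at 0.872. The C3R cell with the score of 0.1997 was too, at 0.995.

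**Figure D5:**
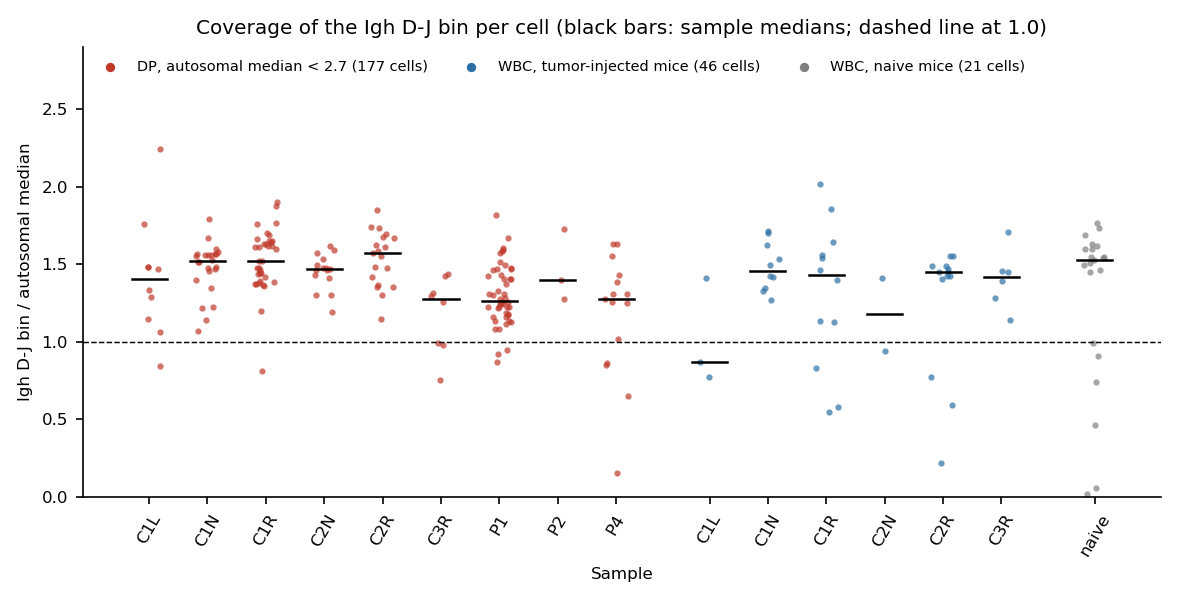
Each point is the Igh D-J bin of 1 cell divided by its autosomal median, by class and sample, with black bars at the sample medians and a dashed line at 1.0. Most cells lie near 1.4 in every class, and 12 DP cells, 9 WBC and 6 naive WBC lie under the line.

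Bins of Y were not flat although all hosts were labelled female and X stood at the autosomal level. The mean Y level relative to the autosomes ran from 0.00329 to 0.389 with no DP cell between 0.0581 and 0.104. It exceeded 0.07, a limit set after the values were seen, in 30 of 177 DP cells (16.9%). It did so in 21 of 46 WBC (45.7%) and 12 of 21 naive WBC (57.1%). Raised DP cells had a median Y level of 0.188 and a median of 197.5 bins at the ceiling, and the other DP cells 0.0221 and 93. Over the 177 cells the Y level and the number of ceiling bins had a Spearman correlation of 0.890, as a description of cells that share libraries. The paired share was 28.7% in DP cells and 42.3% in WBC (exact sign-flip p = 0.25). The difference of -13.5 percentage points was -6.28 without C2R, -33.2 in lung cells only and 6.11 in blood cells only. Raised and low DP cells had mean tumor scores of 0.0363 and 0.0273.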

How the data were processed

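Single cells were amplified by MALBAC, and the authors deposited for each cell a normalised and scaled coverage signal over 4880 bins. Per the submitters' processing notes the series used Trim Galore, BWA, Picard and SAMtools with mm10. The making of the bins, their scaling and the ceiling of 10 are not given in the sources used here. Class, tissue and sample of each cell were taken from the deposited cell table.

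Bins that held exactly 10 in 1% of cells or more were dropped, which kept 4120 autosomal and 256 X bins. Each value plus 0.1 was log2 transformed, less the autosomal median of its cell. Differences were taken from the mean naive WBC profile, with each naive cell set against the other naive cells. Values of single loci are ratios to the autosomal median. Cells of a class were averaged per sample (at least 3 cells). Bins and chromosomes were fitted with limma 3.58.1 (lmFit, eBayes, sample as a block, Benjamini-Hochberg at 5%), other values by exact sign-flip tests, and shares carry Clopper-Pearson 95% intervals. The sample label is the pairing, and the classes of 1 sample correlated at 0.0269 to 0.449 in their deviations, with 3 of 5 DP samples matching their own WBC best and C1L and C1R another sample's. In simulated data 200 of 4376 bins were changed. Each bin was drawn on its own, without sample effects or correlation between neighbouring bins, so the rates may not hold for the real data. The fit recovered 82% of changes of 0.2 and 100% of changes of 0.5, with 10 false calls. Recovery of changes below 0.2 was not measured, and the observed bin differences had a median absolute value of 0.0313. The simulation thus cannot tell whether changes of that size would be found, and 0 bins passing does not show that none exist.

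The named items were all receptor loci, chromosomes that passed or were the 3 most positive and negative, bins that passed, 14 tumor genes, 10 leukocyte genes and non-rearranging clusters. Members and lists were chosen with earlier results of these data known. Gene positions came from RefSeq for GRCm38.p6. R 4.3.3 ran limma, and Python 3.11.15 (scipy 1.17.1, pandas 2.3.3, numpy 2.4.6) the rest. Alternatives were other pseudocounts, filters, limits, cell minimums, tissues, noise, averaging and left-out samples. Not every recurrent region is reported here.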

Additional observations from a re-analysis of the deposited data

Results flagged for a closer look

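Of 22 groups of sample values examined, 3 held a sample far from the others, where chance gives about 1 in 20. In DP cells below 2.7 the mean tumor score of C1L was 0.127, against 0.0612 in the next of 9 samples. The mean X level of the same sample was -0.127, against -0.0351 in the next. Both means include the blood cell at 2.44, which has the profile of the tumor. In WBC the median number of bins at the ceiling was 9 in C2N, which rests on 2 cells, against 161.5 in the next of 6 samples. In 0 of 9 measures did DP cells differ from WBC one way in all lung samples and the other way in all blood samples.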

How the results depend on the processing

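Over 13 results and 231 recomputed values, 210 kept their direction and their side of the threshold. With 5 pairs or fewer the sign-flip test cannot reach 0.05, so for such values the side of the threshold was fixed in advance. Some settings leave a measure unchanged by construction, as the other pseudocounts do for the both-mark share. A value that kept its direction could still shrink, as the tumor score difference did to 0.00216 in lung cells only. The count of 0 bins passing held under all 19 alternatives, with the smallest limma adjusted p between 0.0512 (without C1R) and 0.890 over left-out samples. Chromosomes passing were less firm. Against 1 in the text, 0 passed with samples of at least 1 cell, in lung cells only, in blood cells only, in cells below the median bin noise and with no replicate block, where the samples are not paired. With at least 5 cells, without cells with a raised Y level and without cells below the Igh D-J limit 2 passed, and leaving out a sample gave 0 to 2. The X level difference turned to 0.0116 in lung cells only. The Tcra locus ratio turned to -0.0121 in lung cells only, and the both-mark share to 4.98 percentage points in cells below the median bin noise. Bin noise turned to -0.00068 in blood cells only and to -0.00246 without cells with a raised Y level. The Y-level share turned to 6.11 percentage points in blood cells only. Medians over cells gave a difference of 0 for deviating chromosomes and for segments, since fewer than 50% of cells carried any. For the turned values the cause was not tested. The settings on Y and on Igh, and the measures they rest on, were chosen after seeing the data, as was the share of cells with a segment. A correction for GC content was not run, because no genome was used here. Depth per cell is unknown, and bins of about 538 kb cannot show shorter changes.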
